A study of Mus musculus with 2 samples.

Results

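The Hox genes encode homeodomain transcription factors that give cells their position along the head-to-tail axis. They were chosen by symbol, as every gene named Hoxa, Hoxb, Hoxc or Hoxd followed by a number, which gave 39 of the 21896 genes measured. Expression was measured by RNA-seq in the ventricular zone and subventricular zone (VZ–SVZ) of embryonic mouse cortex at E13.5, with 1 library per genotype, Rcor2fl/fl (control cortex) and Rcor2cko. Both came from C57/BL6 embryos of crosses between Rcor2fl/+NesCre mice, and both genotypes carry the floxed Rcor2 allele on both chromosomes. The Rcor2cko embryos also carry NesCre, a Cre recombinase driven by Nestin, which acts mainly in neural progenitors and their progeny. How many embryos went into a library is not given in the sources used here, and without replicates no difference between genotypes could be tested.

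Hox genes lie in 4 clusters, HoxA to HoxD, and are numbered by paralogue group from the anterior end of the cluster to the posterior end. Low-numbered genes are switched on in the hindbrain and higher-numbered genes progressively further back, in the spinal cord and trunk, under the control of retinoic acid, Cdx factors and posterior signals. Their expression stops behind the forebrain and midbrain, where Polycomb complexes keep the clusters silent, and Polycomb and Trithorax proteins were first known as regulators of these genes. Rcor2 is a co-repressor in LSD1 complexes, so the comparison asks whether Hox RNA appeared in cortex from which Rcor2 had been deleted.

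Values were deposited as FPKM, fragments scaled to transcript length and to the size of the library, a scale on which levels of different genes can be set side by side. Low values fell on steps of whole fragments, from which scaling totals of 18841684 fragments in control cortex and 25479853 in Rcor2cko cortex were recovered. A gene counted as detected at 3 or more fragments, called the detection floor. Intervals and upper limits given here are those of exact two-sided 95% intervals, which cover counting error alone. Rcor2 itself was at 90.6 FPKM in control cortex and 55.7 FPKM in Rcor2cko cortex, from 3108 and 2571 fragments, a ratio of 0.614 (95% interval 0.583 to 0.647). This value covers the whole gene, so that exons outside the LoxP sites contribute to it.

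Promoter sequences from RefSeq (GRCm38.p6, 250 bases before to 50 after the start) were at hand for 22 of the 39 Hox genes, in 24 windows. Hox clusters are known for CpG islands, on which Polycomb complexes assemble, so CG dinucleotides are printed in capitals. Hoxb8, the one Hox gene with a fragment in both libraries, and Hoxa7, with a fragment in the control, are shown first. Hoxa13, with the most CG among the windows, and Hoxd4, one of those with the fewest, follow. The windows lie at chr11:96281655-96281954 on the plus strand, chr6:52218524-52218823 on the minus strand, chr6:52260831-52261130 on the minus strand and chr2:74721728-74722027 on the plus strand.
Hoxb8: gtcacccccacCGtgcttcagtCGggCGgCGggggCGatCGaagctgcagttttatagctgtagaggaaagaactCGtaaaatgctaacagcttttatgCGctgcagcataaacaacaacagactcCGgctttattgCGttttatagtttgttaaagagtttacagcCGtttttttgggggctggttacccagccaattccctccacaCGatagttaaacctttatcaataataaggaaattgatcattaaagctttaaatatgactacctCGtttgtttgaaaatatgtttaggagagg
Hoxa7: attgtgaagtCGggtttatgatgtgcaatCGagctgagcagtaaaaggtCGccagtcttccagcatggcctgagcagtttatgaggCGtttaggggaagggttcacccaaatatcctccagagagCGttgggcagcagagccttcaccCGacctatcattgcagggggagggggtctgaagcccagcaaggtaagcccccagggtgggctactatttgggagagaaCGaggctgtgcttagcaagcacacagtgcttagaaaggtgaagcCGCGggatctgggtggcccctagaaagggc
Hoxa13: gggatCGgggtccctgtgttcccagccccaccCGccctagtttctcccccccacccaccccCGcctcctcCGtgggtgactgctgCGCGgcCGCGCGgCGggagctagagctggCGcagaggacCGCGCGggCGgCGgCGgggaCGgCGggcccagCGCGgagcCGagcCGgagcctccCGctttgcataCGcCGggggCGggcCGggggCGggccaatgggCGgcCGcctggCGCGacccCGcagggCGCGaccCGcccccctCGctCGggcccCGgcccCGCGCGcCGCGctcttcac
Hoxd4: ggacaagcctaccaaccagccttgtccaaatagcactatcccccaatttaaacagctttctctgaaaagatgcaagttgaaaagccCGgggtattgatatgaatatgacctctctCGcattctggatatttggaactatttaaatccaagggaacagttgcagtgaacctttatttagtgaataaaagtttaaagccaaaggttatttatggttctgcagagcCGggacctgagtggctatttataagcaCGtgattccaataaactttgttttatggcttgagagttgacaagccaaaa

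The CG content of the Hox windows ranged from 4 to 45, with a median of 14.5. Hoxb8 held 13, Hoxa7 held 9, Hoxa13 held 45 and Hoxd4 held 4. A window was called CG-rich with an observed over expected CG ratio of at least 0.6 and at least 50% G and C. By that measure 11 of the 24 Hox windows, or 45.8%, were CG-rich, among them those of Hoxa5, Hoxa6, Hoxa13, Hoxd1 and Hoxd13. The same held for 47.7% of the 17955 windows of all genes with a sequence. Among other genes with at least 1 FPKM in a library the share was 68.6%, and among other genes listed at 0 in both libraries it was 4.34%. The share of the Hox windows lay between these 2 values. HoxA held 6 CG-rich windows of 10 and HoxD 5 of 10, whereas none of the 3 HoxB windows and not the single HoxC window, that of Hoxc4, passed. The motif TATAAA, searched on both strands, was in 4 of the Hox windows (16.7%), those of Hoxa10, Hoxb8, Hoxd4 and Hoxd13, and in 12.2% of all windows.

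Of the 39 Hox genes, 32 were listed at 0 in both libraries. In control cortex, 5 genes had a fragment, and in Rcor2cko cortex 3 genes had one. No Hox gene had more than 1 fragment in a library, so that 0 of 39 reached the detection floor in either. Over all 21163 genes long enough to be assessed, 68.0% reached that floor in control cortex and 70.0% in Rcor2cko cortex. A further 5.89% of genes had 1 or 2 fragments in control cortex, and 26.1% had none. Listed at 0 in both libraries were 5433 of all 21896 genes, or 24.8%. In bulk tissue, fewer cells with a transcript and less of it per cell cannot be told apart, so a single fragment cannot say in how many cells it arose.

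**Figure D1:**
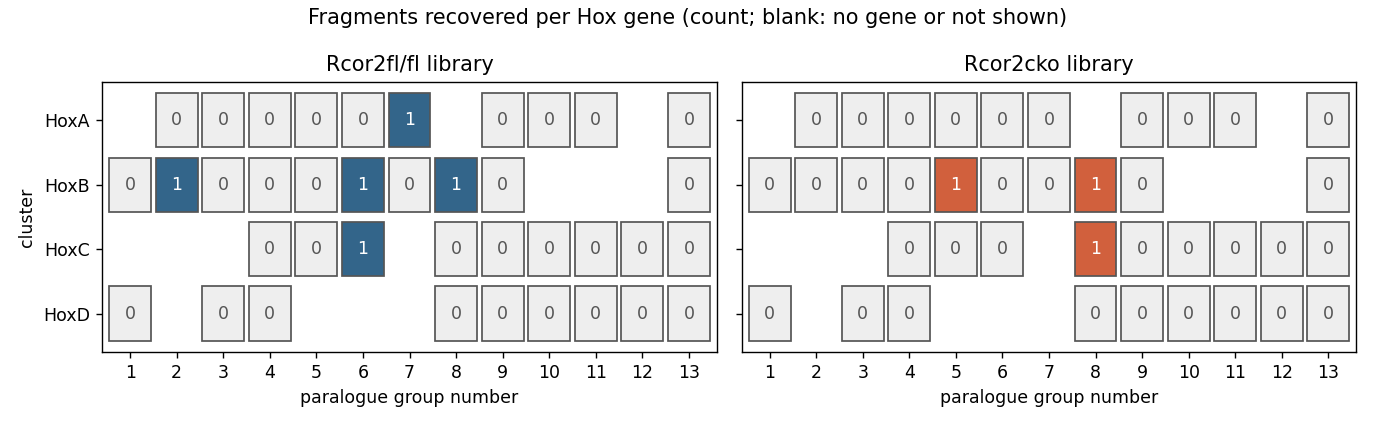
Fragments recovered for Hox genes in control (Rcor2fl/fl) cortex (left) and Rcor2cko cortex (right), with clusters in rows and paralogue groups from 1 (anterior) to 13 (posterior) in columns. Filled squares mark 1 fragment and grey squares 0. The HoxD row and the columns from group 9 on hold no fragment in either library.

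Summed over the 39 genes, the Hox clusters gave 0.174 FPKM in control cortex and 0.0573 FPKM in Rcor2cko cortex. These sums rest on 5 fragments (95% interval 1.62 to 11.7) and 3 fragments (0.619 to 8.77). Averaged over the length of all 39 transcripts, the mean level was 0.00384 FPKM (0.00125 to 0.00897) in control cortex and 0.00171 FPKM (0.000353 to 0.00500) in Rcor2cko cortex. The ratio of the libraries, Rcor2cko over Rcor2fl/fl, was 0.445 with an interval from 0.0692 to 2.29. A difference in total Hox RNA was not detectable at this depth. The upper end, 2.29 times, covers counting error between these libraries alone. It sets no limit on a rise between genotypes or in a single cluster.

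The precision of each silent gene depends on its length. Hox transcripts ran from 699 to 3390 nt, with a median of 1951 nt. In control cortex the level of 3 fragments ranged from 0.0504 FPKM for Hoxb3, the longest, to 0.315 FPKM for Hoxa6, the shortest, with a median of 0.0906 FPKM. The deeper Rcor2cko library set the floor between 0.0374 and 0.236 FPKM, with a median of 0.0673 FPKM. Short genes such as Hoxa6, Hoxc11 and Hoxc12 were therefore bounded less tightly than Hoxb3 or Hoxd3.

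**Figure D2:**
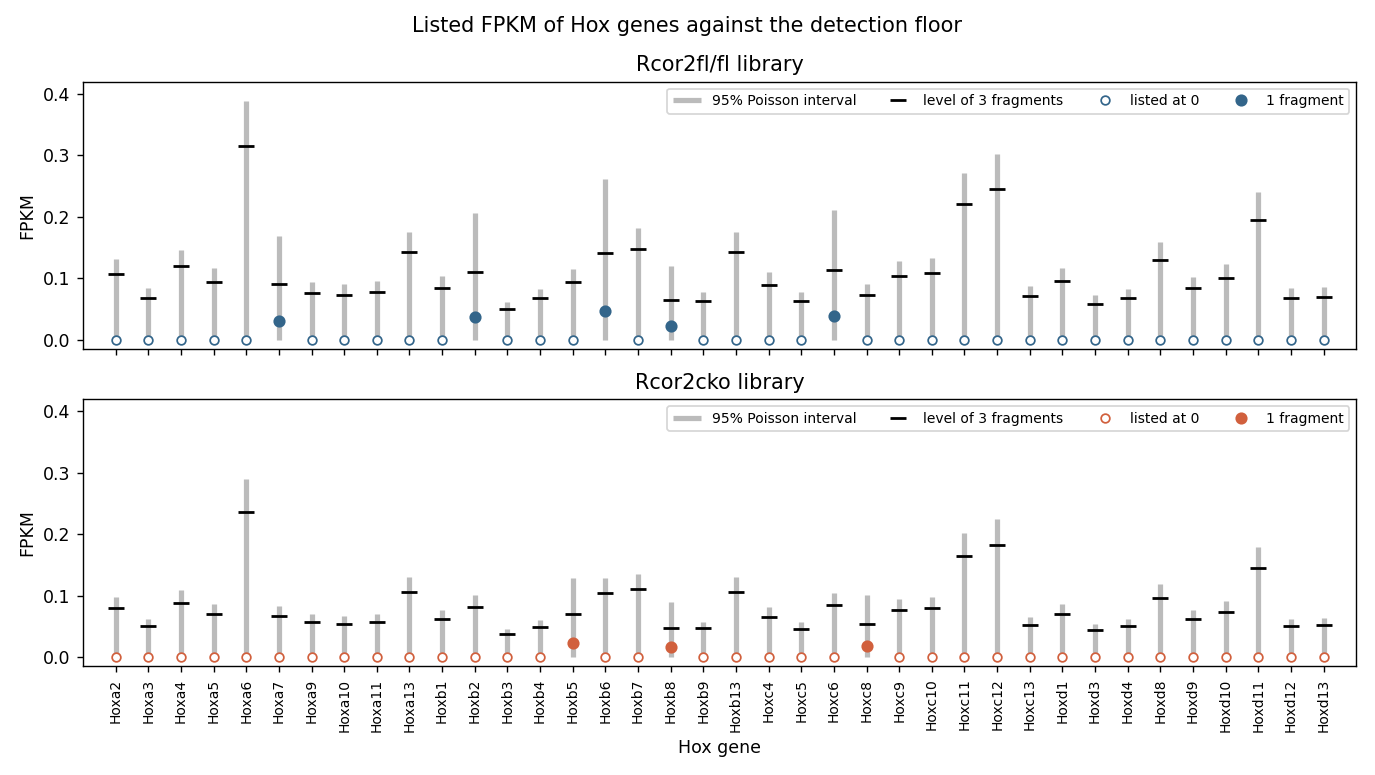
Listed FPKM of 38 of the 39 Hox genes in each library. Open circles are genes listed at 0, filled circles genes with 1 fragment, black dashes the level of 3 fragments and grey bars the 95% Poisson interval. Every filled circle lies below its dash, and the dash of Hoxa6 is the highest, at 0.315 FPKM in control cortex.

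HoxB held 3 of the 5 fragments of control cortex and 2 of the 3 of Rcor2cko cortex. This cluster of 10 genes spans 173.9 kb of chromosome 11 (mm9, 96055675 to 96229567, plus strand). Its levels summed to 0.106 and 0.0392 FPKM. The ratio of mean levels was 0.495 (0.0413 to 4.32). Hoxb2, which patterns the hindbrain segments and facial motor neurons, was at 0.0370 FPKM in control cortex and listed at 0 in Rcor2cko cortex. Hoxb5, a gene of the posterior hindbrain and cervical cord, was listed at 0 in control cortex and at 0.0232 FPKM in Rcor2cko cortex. Hoxb6, a gene of the trunk, was at 0.0471 FPKM in control cortex and listed at 0 in Rcor2cko cortex. These 3 genes each had their single fragment in 1 library only, and for each the upper limit in the other library lay above that value.

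Hoxb8, which marks spinal cord and also a lineage of blood and microglial cells, was at 0.0217 FPKM in control cortex and 0.0161 FPKM in Rcor2cko cortex. It was the one Hox gene above 0 in both. Each value is 1 fragment, with an upper 95% limit of 0.121 and 0.0895 FPKM. Of 9 microglia and blood markers 8 were detected in each library and none was listed at 0, with summed levels of 48.0 and 50.8 FPKM. Most of that sum was the embryonic globin Hbb-y, at 36.0 and 33.6 FPKM. Csf1r, a receptor that microglia need to survive, was at 2.67 and 4.32 FPKM. Whether such cells gave the Hoxb8 fragments was not tested. The remaining HoxB genes, Hoxb1, Hoxb3, Hoxb4, Hoxb7, Hoxb9 and Hoxb13, were listed at 0 in both libraries.

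HoxA, 11 genes over 105.5 kb of chromosome 6 (52105366 to 52210874, minus strand), had 1 fragment in control cortex and none in Rcor2cko cortex. The fragment belonged to Hoxa7, a gene of the trunk axial skeleton and cord, at 0.0302 FPKM (upper limit 0.168). Its promoter, printed above, was not CG-rich. Hoxa2, which patterns the anterior hindbrain, was listed at 0 in both libraries, as were Hoxa3, Hoxa4, Hoxa5, Hoxa6, Hoxa9, Hoxa10, Hoxa11 and Hoxa13. Hoxa2 reaches further forward in the hindbrain than any other Hox gene, and its 0 has an upper limit of 0.132 FPKM in control cortex and 0.0978 FPKM in Rcor2cko cortex. Hoxa3 to Hoxa6 lie in overlapping transcription units that the deposited values treat as 1 locus, as they do Hoxd3 and Hoxd4 of HoxD. Hoxa10 and Hoxb3 have 2 listed transcripts each.

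HoxC, 9 genes over 115.7 kb of chromosome 15 (102751562 to 102867283, plus strand), had 1 fragment in each library, from different genes. Hoxc6, a gene of the brachial spinal cord, was at 0.0380 FPKM in control cortex and listed at 0 in Rcor2cko cortex. Hoxc8, which specifies motor pools at brachial levels, was listed at 0 in control cortex and at 0.0181 FPKM in Rcor2cko cortex. The ratio for the cluster was 0.743, with an interval from 0.00946 to 58.3. Hoxc4, Hoxc5, Hoxc9, Hoxc10, Hoxc11, Hoxc12 and Hoxc13 were listed at 0 in both.

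HoxD, 9 genes over 96.8 kb of chromosome 2 (74506367 to 74603199, plus strand), had no fragment in either library. All of Hoxd1, Hoxd3, Hoxd4, Hoxd8, Hoxd9, Hoxd10, Hoxd11, Hoxd12 and Hoxd13 were listed at 0. For the cluster as a whole the upper limit of the mean level was 0.0116 FPKM in control cortex and 0.00860 FPKM in Rcor2cko cortex. In HoxA, it was 0.00773 FPKM in Rcor2cko cortex. These limits on a cluster are lower than those on any of its genes because the lengths add up.

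By position along the axis, the fragments fell mainly on the middle of the clusters. The 15 central genes of groups 4 to 8 had 4 fragments in control cortex and 3 in Rcor2cko cortex, a mean level of 0.00833 FPKM (0.00227 to 0.0213) and 0.00464 FPKM (0.000956 to 0.0135). The 8 anterior genes of groups 1 to 3, the ones nearest to the forebrain in their expression, had 1 and 0 fragments. The 16 posterior genes of groups 9 to 13 had none, with an upper limit of the mean level of 0.00737 FPKM in control cortex and 0.00547 FPKM in Rcor2cko cortex. The intervals of the central genes in both libraries include levels below those limits. Such an overlap does not settle whether the regions differ, and an order among them was not tested.

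The clusters also hold microRNA genes that target Hox transcripts. Their mature strands are known as miR-10 and miR-196, 2 families defined by the seed, bases 2 to 8, shown in capitals (RefSeq). The members in HoxB and HoxD share one seed, and those in HoxA, HoxB and HoxC share the other.
miR-10a-5p: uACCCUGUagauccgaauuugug
miR-10b-5p: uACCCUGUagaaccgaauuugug
miR-196a-5p: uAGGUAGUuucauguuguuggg
miR-196b-5p: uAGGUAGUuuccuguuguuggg

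The deposited values hold 9 rows within the cluster spans that are not Hox genes, and all 9 were listed at 0 in both libraries. The microRNA rows, Mir10a, Mir10b, Mir196a-1, Mir196a-2, Mir196b and Mir615, describe hairpins of 68 to 110 nt, shorter than the fragments of an mRNA library, so their 0 sets no limit. The other 3, Hoxa11as, 2700086A05Rik and 1700109F18Rik, are long non-coding transcripts of 1839, 835 and 794 nt for which a floor could be set. The library kit marks strand, but whether strand was used in quantification is not given in the sources used here.

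On each side of a cluster, the nearest gene to reach 1 FPKM in either library lay between 60.7 and 399.3 kb from its end. Within 1 Mb of the ends of the 4 clusters lie 113 other genes, and 73 of these reached 1 FPKM in both libraries. Of all 21896 genes, 11777 reached that level in 1 library or more. The share of all genes reaching it in both was not computed, so the 73 mark no boundary at the clusters. Over the 113, the median level was 6.04 FPKM in control cortex and 5.57 FPKM in Rcor2cko cortex. Evx1 and Evx2, homeobox genes next to HoxA and HoxD, were listed at 0 in both libraries. Beyond Evx2, Lnp, an endoplasmic reticulum protein, was at 7.10 and 8.35 FPKM in the Rcor2fl/fl and Rcor2cko libraries. On the other side of HoxD, Mtx2, a mitochondrial import protein, was at 31.1 and 34.5 FPKM at a distance of 60.7 kb. The stretch between these genes, silent in both libraries, was 246.9 kb long.

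Around HoxA, the nearest gene with at least 1 FPKM in a library was Skap2, an adaptor protein, at 1.87 and 2.59 FPKM, and on the other side Hibadh, an enzyme of valine breakdown, at 9.89 and 10.3 FPKM. They lie 533.7 kb apart. Around HoxC, Smug1, a DNA repair glycosylase, was at 6.24 and 6.07 FPKM at a distance of 116.4 kb, and Calcoco1 was at 42.9 and 37.9 FPKM. They bound 431.1 kb. Around HoxB, Atp5g1, a subunit of the ATP synthase, was at 52.8 and 49.1 FPKM at 118.7 kb, and Snx11, a sorting nexin, was at 11.9 and 11.5 FPKM. That gap, 691.9 kb, was the longest of the 4.

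Within the HoxB gap 2 other genes had fragments. Skap1, a T-cell adaptor, was at 0.381 and 0.281 FPKM. Ttll6, a tubulin glutamylase of cilia, was listed at 0 in control cortex and at 0.0914 FPKM, from 7 fragments, in Rcor2cko cortex. Cbx3 beside HoxA and Cbx5 beside HoxC, which encode heterochromatin proteins, were at 170 and 173 FPKM and at 43.9 and 44.2 FPKM. Other neighbours were Snx10 at 9.96 and 10.9 FPKM, Tax1bp1 at 40.7 and 38.9 FPKM, Atp5g2 at 204 and 195 FPKM, Atp5g3 at 194 and 179 FPKM, and Hnrnpa3 at 137 and 126 FPKM. Hnrnpa3 shares its locus with Gm6793, listed at 377 and 317 FPKM, and a split of fragments between them is uncertain. Gm10052 was listed at 577 and 511 FPKM at the locus of Hnrnpa1, where a split of fragments is uncertain too. Calcoco2, Gm11529 and Mir688 were listed at 0 in both libraries.

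**Figure D3:**
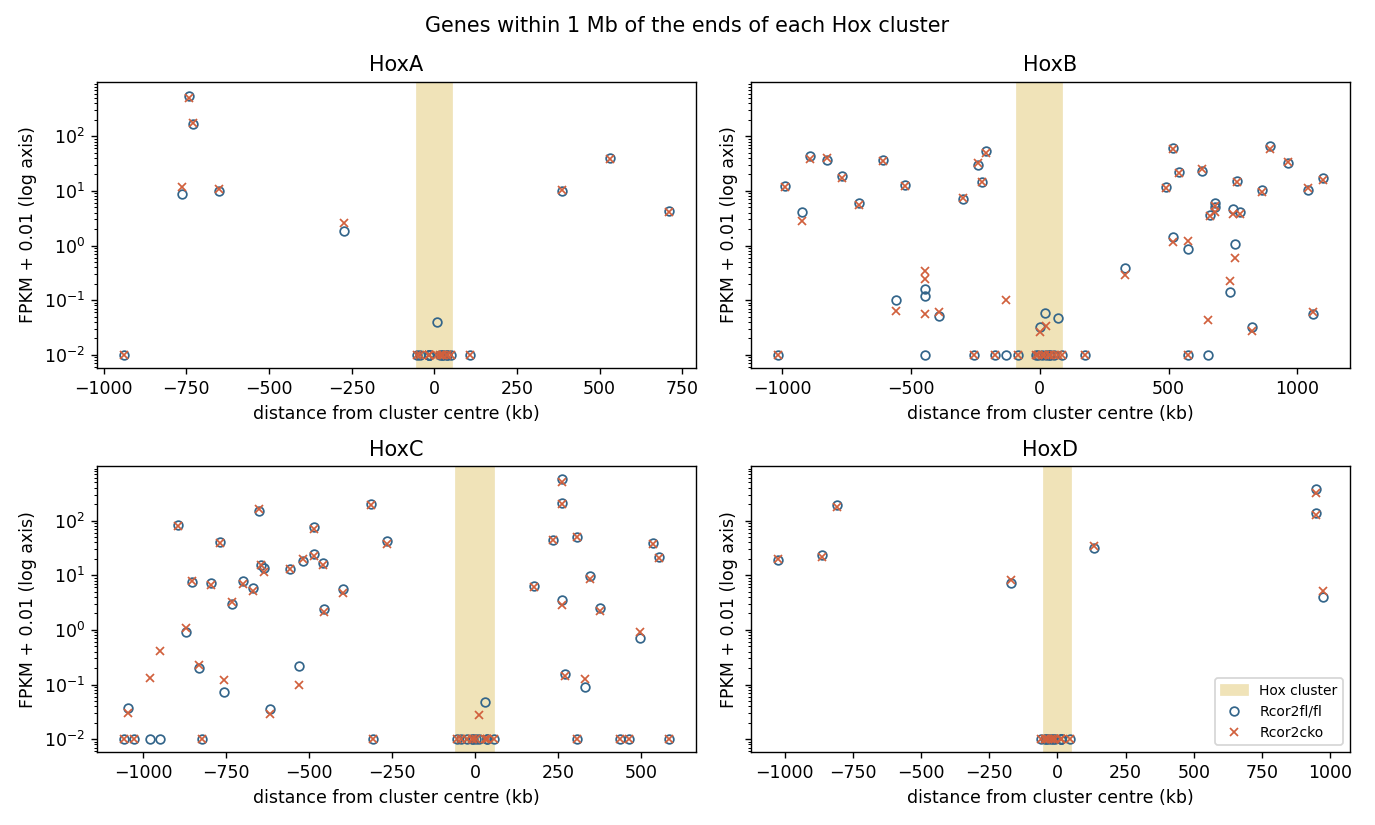
FPKM (plus 0.01, log axis) of genes within 1 Mb of the ends of each Hox cluster, against the distance of the gene from the centre of the cluster. Circles are control cortex and crosses Rcor2cko cortex, and the shaded band is the cluster. Genes inside the band sit at or near the bottom of each panel. Outside it, Atp5g1, Smug1, Lnp and Mtx2 are at 6 FPKM or more in both libraries. Evx1, Evx2, Calcoco2 and Gm11529, also outside it, are listed at 0 in both. Of the 113 genes outside the bands, 73 reach 1 FPKM in both.

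The level of the Hox genes was set beside families that are used outside the cortex. The 1092 olfactory receptor genes had a mean level of 0.00712 FPKM (0.00590 to 0.00852) in control cortex and 0.00723 FPKM in Rcor2cko cortex. In control cortex that interval lay within the one of the Hox genes (0.00125 to 0.00897), so no order was resolved there. In Rcor2cko cortex the receptor interval, 0.00616 to 0.00843 FPKM, lay above that of the Hox genes (0.000353 to 0.00500). The receptor mean rests on a few members, 2 and 5 of which reached the floor. Over the olfactory receptor genes below the floor it was 0.000722 FPKM (0.000373 to 0.00126) in control cortex and 0.000676 FPKM (0.000379 to 0.00112) in Rcor2cko cortex. Leaving members out by their own counts lowers this mean by construction, so no order against the Hox genes is drawn from it. The 46 keratin-associated protein genes, which build hair, were at 0.00171 FPKM (4.34e-05 to 0.00955) and 0.00256 FPKM (0.000310 to 0.00925). Of Hox genes, 12.8% and 7.69% had a fragment, and of olfactory receptor genes 1.19% and 1.74%. Hox transcripts are longer than those of olfactory receptors, so the shares are not on a per-length scale.

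**Figure D4:**
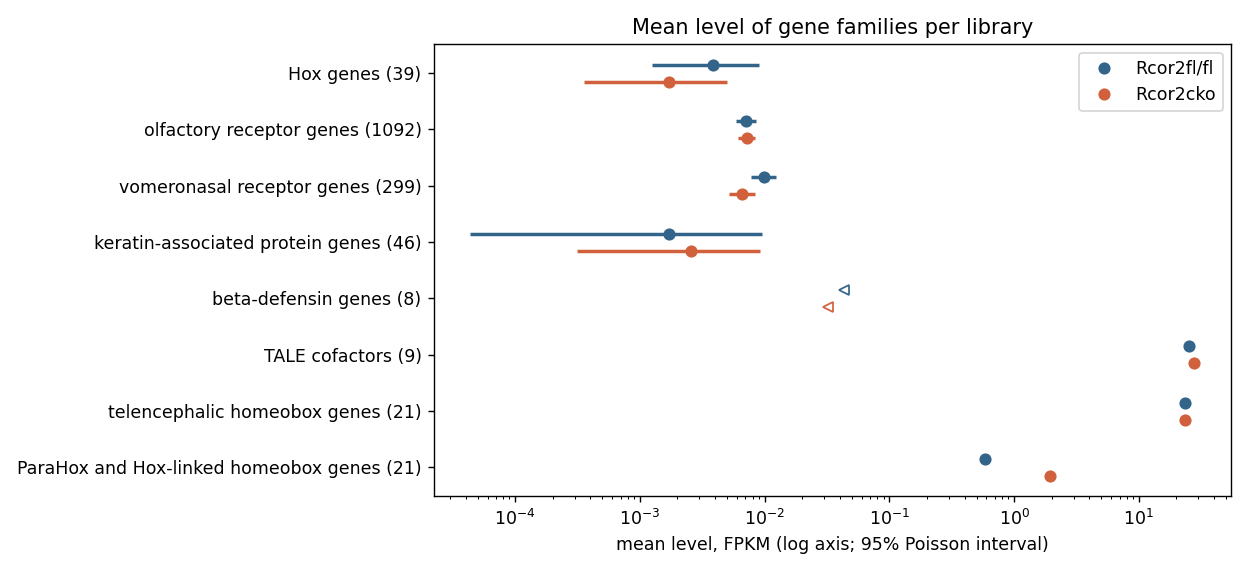
Mean level in FPKM (log axis) of gene families over their summed transcript length, for control cortex and Rcor2cko cortex, with the number of genes in brackets. Points are means, lines 95% Poisson intervals, and open triangles the upper limit where no fragment was found. The Hox genes are at 0.00384 and 0.00171 FPKM, and the TALE cofactors at 25.0 and 27.8 FPKM. In control cortex the Hox interval overlaps those of the receptor and keratin-associated families. In Rcor2cko cortex it lies below those of both receptor families.

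None of the 39 Hox genes reached 1 FPKM, so none entered the comparison of the libraries, which took 11777 genes with at least 1 FPKM in a library. Of those, 3.79% were more than 1.5-fold higher in Rcor2cko cortex and 1.76% more than 1.5-fold lower, on (FPKM + 0.1), with a median log2 change of -0.03. No fold change is given for a Hox gene, since both libraries were at or under 1 fragment. Lists of genes that act with or upstream of Hox genes are described by their counts. Where a log2 change has an interval, it is that of the ratio of fragments.

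Hox proteins bind DNA together with TALE homeodomain proteins, the Pbx, Meis and Pknox factors. All 9 TALE genes were detected in both libraries, with a mean level of 25.0 FPKM (24.6 to 25.5) and 27.8 FPKM (27.4 to 28.2). Of these, 2 were more than 1.5-fold higher in Rcor2cko cortex, 7 lay within 1.5-fold and none was lower, with a median log2 change of 0.06. Pbx3 was at 3.09 and 7.48 FPKM (log2 change 1.25, interval 0.98 to 1.57). Meis1 was at 1.37 and 2.66 FPKM (log2 change 0.91). The most abundant, Meis2, was at 60.3 and 67.2 FPKM.

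Retinoic acid turns on Hox genes through response elements in the clusters. Of 18 genes of the retinoic acid pathway 10 could be compared, of which 3 were higher, none lower and 7 within 1.5-fold, with a median log2 change of 0.18. Crabp2, which carries retinoic acid to its receptors, was at 2.18 and 7.30 FPKM (log2 change 1.70). Rxrg, a receptor subunit, was at 0.0358 FPKM, from 1 fragment, and 1.12 FPKM. The most abundant member, the receptor subunit Rxrb, was at 19.98 and 19.97 FPKM.

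Of 8 genes listed as upstream regulators of Hox genes, 5 were listed at 0 in both libraries. Among these were Cdx1, Cdx2, Cdx4 and Gbx2. Egr2, which drives Hox genes in hindbrain segments, was at 0.0575 and 0.0710 FPKM, from 3 and 5 fragments. Gdf11, a posterior signal, was at 5.19 and 4.58 FPKM. The 2 regulators that could be compared lay within 1.5-fold.

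The Polycomb genes, whose products silence Hox clusters, were all detected. All 19 lay within 1.5-fold, with a median log2 change of -0.07. Ezh2, the methyltransferase of the complex, was at 67.5 and 66.5 FPKM. Phc2 was at 69.2 and 62.4 FPKM and Rbbp4 at 64.0 and 60.8 FPKM. The 11 Trithorax genes and H3K27 demethylases, which oppose Polycomb, also lay within 1.5-fold, with a median log2 change of -0.14. So did most of the genes compared, of which 3.79% were more than 1.5-fold higher in Rcor2cko cortex and 1.76% lower. Mll1, a methyltransferase that maintains Hox expression, was at 24.7 and 22.3 FPKM.

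The homeobox genes most closely related to the Hox genes or linked to their clusters made up a mixed list. Of 21 such genes 10 were listed at 0 in both libraries, among them Evx1, Evx2, Pdx1, Mnx1 and the Cdx genes. The 5 that could be compared, Dlx1, Dlx2, Dlx5, Dlx6 and Gsx2, were all more than 1.5-fold higher in Rcor2cko cortex, with a median log2 change of 1.89. Gsx2, a ParaHox gene that patterns the ventral telencephalon, was listed at 0 in control cortex and at 1.64 FPKM, from 61 fragments, in Rcor2cko cortex. That value is 15.1 times the level of 3 fragments in control cortex, a ratio that leaves out counting error. The study chose to name some of these genes from its own expression data, so the list is no independent evidence of a direction.

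**Figure D5:**
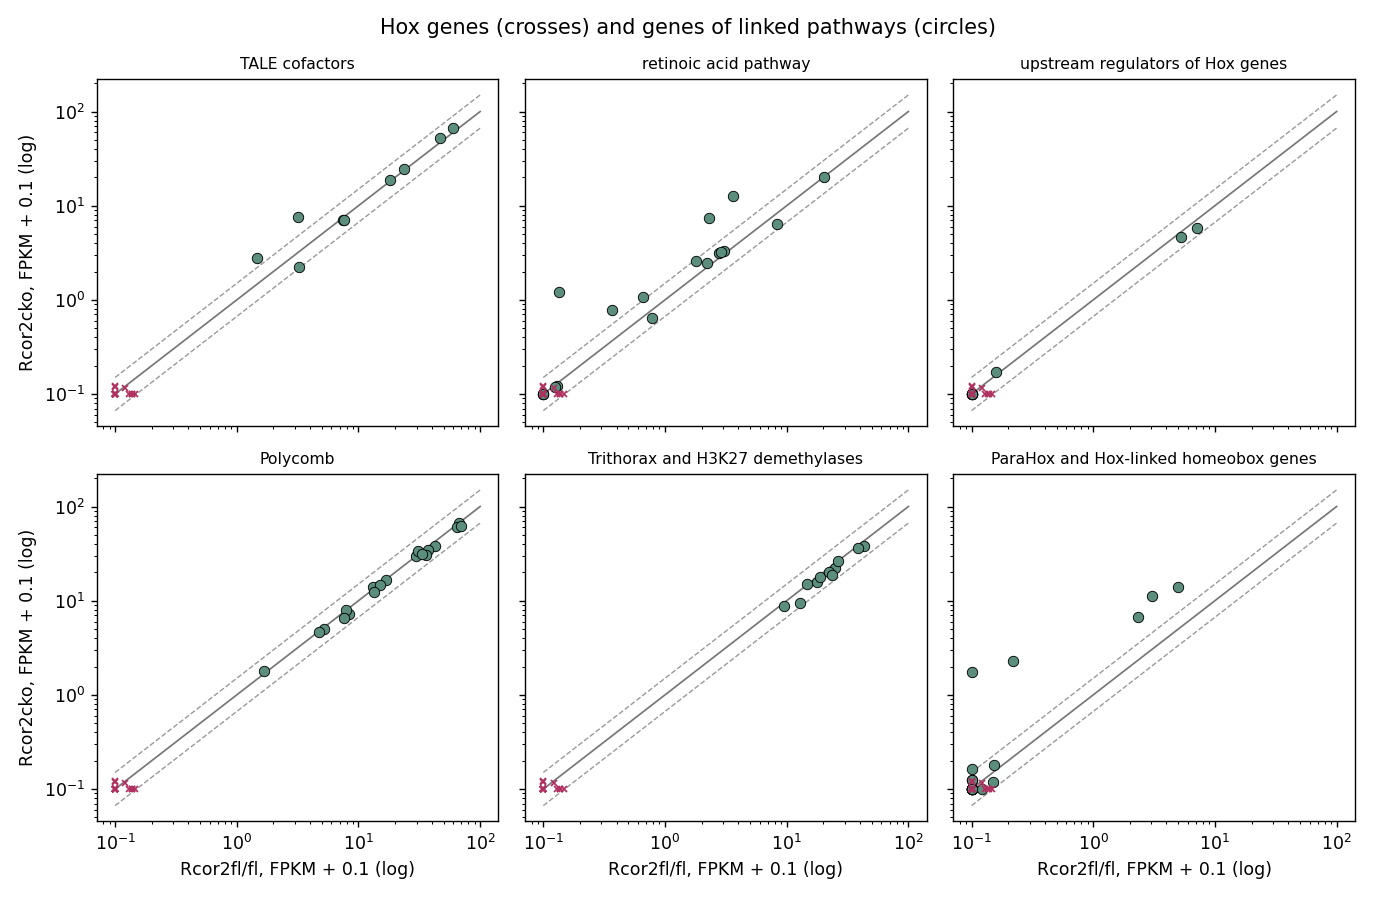
Level in Rcor2cko cortex against that in control cortex (FPKM + 0.1, log axes) for genes of 6 lists (circles) and the Hox genes (crosses, the same in each panel). The solid line marks equal levels and the dashed lines 1.5-fold. Polycomb and Trithorax genes lie between the dashed lines, Crabp2, Gsx2, Dlx1, Dlx2, Dlx5 and Dlx6 lie above them, and the Hox genes stay in the lower left corner.

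The labelled tissue was checked against its markers. All 9 markers of cortical progenitors and the neurons they form were detected in both libraries, with Emx1, a dorsal telencephalic homeobox gene, at 55.6 and 43.9 FPKM and Lhx2 at 130.0 and 88.5 FPKM. Tbr1, a marker of postmitotic neurons in that list, was at 71.5 and 83.2 FPKM. Of 10 hindbrain and spinal cord markers, 7 were listed at 0 in both libraries, including Lbx1 and Lmx1b. Their summed level was 0.0971 FPKM in control cortex and 0.0945 FPKM in Rcor2cko cortex, and Egr2 alone was detected. All 21 telencephalic homeobox genes were detected in Rcor2cko cortex, at a mean level of 23.3 FPKM, and 19 in control cortex, at 23.4 FPKM. Of the 19 compared, 5 were higher and 2 lower in Rcor2cko cortex. Hox genes are also expressed in mesenchyme and vessels of the trunk, and markers of these cells were measured too. Of 8 mesenchyme markers 6 and 7 were detected, with summed levels of 2.83 and 3.34 FPKM, and all 6 endothelium markers were detected, with sums of 29.9 and 32.1 FPKM. Of 6 choroid plexus markers 4 and 5 were detected, with sums of 0.897 and 61.4 FPKM, and Ttr was listed at 0 in the control and at 57.8 FPKM in Rcor2cko cortex. The part of these cells in the Hox fragments was not tested.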

How the data were processed

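RNA from the dissected E13.5 VZ–SVZ was sequenced in 1 Rcor2fl/fl and 1 Rcor2cko library, prepared with a stranded mRNA kit. Libraries of E15.5 were not analysed here. The authors mapped reads to mm9 and deposited FPKM values with 95% FPKM bounds. Their methods name TopHat 2.0.3, and the submitters' processing notes TopHat 1.3.3 and Cufflinks 1.2.0. The Rcor2fl/fl values are per transcript (27641 rows) and were summed per gene, whereas the Rcor2cko values are per gene (21896 rows). The status was other than OK in 281 and 93 rows, none of them of a Hox gene.

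The value of 1 fragment was fitted on single-transcript genes of 1000 nt or more, from low FPKM values, with a length offset of 194.05 and 200.9 nt. Of values up to 100 fragments, 99.3% and 99.4% came within 0.1 of a whole number. Genes of at least 300 nt were assessed for detection, and those of at least 500 nt entered the olfactory, vomeronasal, keratin-associated and beta-defensin families. For genes with more than 1 transcript, fragments are approximate. Intervals are exact Poisson or, for ratios, Clopper-Pearson. Calls needed at least 1 FPKM in a library and a change of more than 1.5-fold on (FPKM + 0.1). Spans of the clusters are from the loci given with the deposited values (mm9), and their strands from GENCODE vM1. Python 3.11.15, numpy 2.4.6, pandas 2.3.3, scipy 1.17.1 and matplotlib 3.10.9 were used, and the steps were tested on simulated data.

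The rule for named genes took every Hox gene, every other gene in the cluster spans, the 3 nearest genes on each side, and up to 4 genes of each list by level or size of change. Csf1r, Hbb-y, Ttr, Egr2, the Cdx genes, Mll1, the Dlx genes and other list members beyond these were named after their values were seen. Some genes that enter the counts are not reported here by name. Members and lists were chosen with earlier results of these data known. Other floors, scalings, pseudocounts, filters and ways of joining transcripts were tried.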

Additional observations from a re-analysis of the deposited data

How the results depend on the processing

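No paired analysis was possible because each genotype had 1 library, and no replicate could be left out. With a floor of 1 fragment in place of 3, 5 Hox genes in control cortex and 3 in Rcor2cko cortex counted as detected, in place of 0 and 0. The other alternatives for these counts, and those for the 32 genes listed at 0 in both libraries, could not move them by construction and say nothing on stability. The summed levels of the Hox genes and of each cluster stayed within their counting intervals under all 4 alternatives. Joining transcripts by the highest row or asking for status OK left the sums as they were. The scalings took the Rcor2cko sum from 0.0573 to 0.0587 and 0.0583 FPKM, too small a shift to leave the interval. These alternatives therefore say nothing on stability either. No Hox gene passed 1.5-fold, and since 8 of the 9 alternatives keep a filter that no Hox gene passes, this too says nothing on stability. Over the 139 genes of the context lists, 16 were higher and 2 lower in Rcor2cko cortex. With no filter on low values 25 were higher, and with a filter of 5 FPKM 8 were. With a fold above 2 in place of 1.5, 1 gene was lower. In each of these cases the alternative tests more or fewer genes or asks for a larger change. With the highest row per gene, which lowers control values only, 22 were higher. Fold changes of single Hox genes were not recomputed, since both libraries were at or under 1 fragment. Depth sets the detection floor, from 0.0504 FPKM for the longest Hox transcript to 0.315 FPKM for the shortest in control cortex. A 0 there has an upper 95% limit of 0.0620 FPKM for Hoxb3, the longest, and 0.388 FPKM for Hoxa6, the shortest.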

Other observations

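Whole silence of a gene family was not common in these libraries. Among 97 families of at least 20 assessed genes that share the letters of their symbol, the median share of members detected was 85.5% in control cortex and 87.5% in Rcor2cko cortex. In 6 families no member was detected in either library. These were the Hox genes, the reproductive homeobox genes Rhox (32 genes), the prolactin family Prl (26), the natural killer receptors Klra (21), the beta-defensins Defb (29) and the keratin-associated proteins Krtap (51).

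Along the chromosomes, each Hox cluster fell in an unbroken run of genes below the detection floor in both libraries. The run held 14 genes at HoxA, up to Evx1, 11 at HoxB, from Hoxb13 to Gm11529, 9 at HoxC and 11 at HoxD, from Evx2 to Hoxd1. Of 2443 such runs 100 held at least 9 genes, 39 of these made up mostly of olfactory or vomeronasal receptor genes, and the longest held 229 genes. The median run was 1 gene long.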
